A study of Mus musculus with 8 samples.

Results

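The livers of mice with fibrosis induced by thioacetamide were compared with those of mice with fibrosis induced by carbon tetrachloride (CCl4), 2 weeks after the induction had ended. All arrays labelled 2w were used, which were 4 of the 8 arrays of the study. The labels abbreviate the first agent as TAA, the usual short form of thioacetamide. In every group male mice had undergone a 5-week induction with CCl4 or TAA and were then followed for 2 weeks, with an injection every 3 days of either a negative control nucleotide (NC) or miR-29a. The 4 groups were therefore CCl4 with NC, CCl4 with miR-29a, TAA with NC and TAA with miR-29a, with 1 array each. All of them had received an injected oligonucleotide, and no liver without induced fibrosis was among the samples used here. The strain, the age and the dose were not given in the sources used here, and it is not stated if animals were pooled. The p-values therefore measure only the spread between these samples, which may be technical.

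Both agents are converted to reactive products by cytochrome P450 enzymes in the hepatocytes around the central vein, and repeated doses kill these cells. The dead cells are cleared by macrophages, and stellate cells lay down scar matrix. When dosing stops, surviving hepatocytes divide and the matrix is slowly broken down. Thioacetamide is known for scars that join portal tracts and for a strong reaction of the bile ducts, and CCl4 for scars that regress quickly after withdrawal.

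Total liver RNA labelled with Cy3 was hybridised to 1-colour Agilent arrays. Levels are given as log2 of the processed signal relative to the 75th percentile of the same array, with the NC array before the miR-29a array. TAA was set against CCl4 inside each oligonucleotide, which gave 2 matched differences for a gene. The mean of both is given with the SE of a limma fit over all 8 arrays. Kept were probes that the scanner software marked well above background on 2 or more of the 4 arrays, and each gene was represented by its brightest probe, which left 19065 genes. Of these, 17420 (91.4%) were well above background on all 4 arrays. Between 45.4% and 48.4% of the spots of these 4 arrays were well above background, and the arrays correlated at 0.985 to 0.993 over genes. Hepatocyte markers were high on all 4 arrays, with Alb (albumin) between 10.83 and 10.99 and Ttr (transthyretin) between 9.62 and 9.83. The markers Krt7, Epcam, Cd8a and Ncr1 were below the filter. All arrays lay on 1 slide in 1 scan, with the CCl4 arrays in slide column 1 and the TAA arrays in slide column 2, so agent and slide column cannot be told apart.

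At 2 weeks the livers of both models were close to each other. The median absolute difference between TAA and CCl4 was 0.22 log2, against 0.49 log2 at 1 week. On the first principal component, which held 47.8% of the variance of all 8 arrays, the CCl4 2-week arrays were at −15.8 and −12.1 and the TAA 2-week arrays at 2.73 and 16.3. The CCl4 1-week arrays were at −58.1 and −58.3 and the TAA 1-week arrays at 65.4 and 59.9. Both matched differences had the same sign in 70.5% of genes, with both above 0 in 24.9% and both below 0 in 45.6%, and they correlated at 0.51 over genes, which are not independent replicates. The median over all genes was −0.08 log2. It was −0.27 when arrays were scaled to their medians and −0.02 after quantile normalization, so the small differences below are to be read against that shift.

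**Figure D1:**
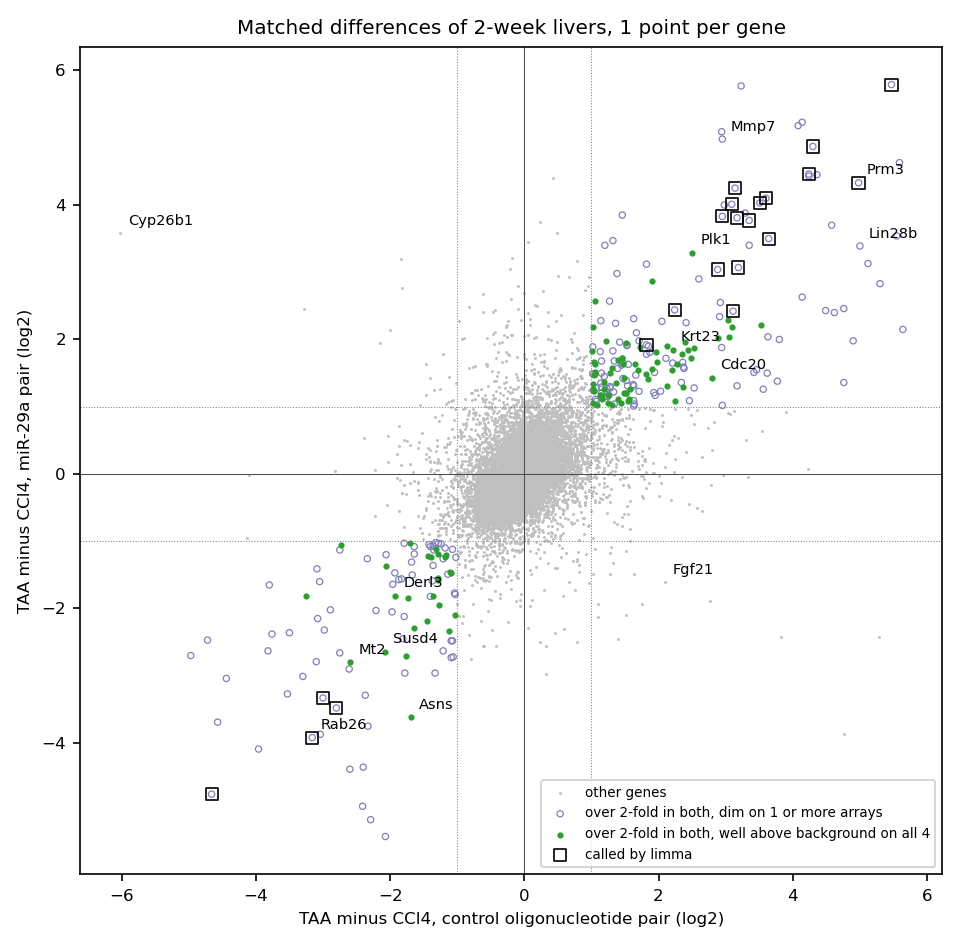
Each point is 1 of 19065 genes, with the TAA minus CCl4 difference in the NC pair on the horizontal axis and in the miR-29a pair on the vertical axis, both in log2. Dotted lines mark 2-fold, green points were beyond it in both pairs and well above background on all 4 arrays (69 higher and 26 lower), and squares mark the 21 genes called by limma, which are all among the dim ones.

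In 191 genes (1.00%) the level was over 2-fold higher with TAA in both matched differences, and in 97 genes (0.509%) over 2-fold lower. With arrays scaled to their medians these counts were 139 and 153. Most of these genes were dim. Of the 191 higher genes 86 were not well above background on either CCl4 array, and of the 97 lower genes 61 were not so on either TAA array. Well above background on all 4 arrays were 69 higher and 26 lower genes. In limma's test with Benjamini-Hochberg adjustment at 0.05, 17 genes were higher (0.0892%) and 4 lower (0.0210%; 0.110% in all), and 2198 genes (11.5%) were at an unadjusted p under 0.05.

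The 21 called genes were probes with a signal with 1 agent and a dim spot with the other. All 17 higher genes passed the filter only through the TAA arrays and all 4 lower genes only through the CCl4 arrays, so they had to differ to be kept. Their values are given as a description, without p-values. Prm3, named as a protamine, was at −5.91 and −5.65 on the CCl4 arrays and at −0.93 and −1.32 on the TAA arrays. Prm3 was thus at least 6.32-fold higher with TAA. Its probe lies on mm9 at chr16:10790601-10790660. Spint5, a protease inhibitor, was at −5.65 and −5.39 against −2.31 and −1.62, at least 3.52-fold higher. The zinc finger gene Zfp599 was at least 1.83-fold higher. These bounds set the brighter group's mean against the lowest signal that was well above background on each dim array, or the dim spot's own where that was higher.

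Lower with TAA were Rab26, a small GTPase of secretory granules, Olfr1167, an odorant receptor, and Obox1, an oocyte homeobox gene. Rab26 was at −2.11 and −1.60 on the CCl4 arrays and not well above background at −5.27 and −5.52 on the TAA arrays, at least 2.75-fold lower. The bounds were 2.24-fold for Olfr1167 and 2.01-fold for Obox1. Of the other called features 13 carried only an accession, clone or model name. With no filter on dim probes limma called 11 genes, 10 of them among the 21. None of the 21 was well above background on all 4 arrays. When that was required of every gene, limma called 0 genes, the smallest adjusted p was 0.415 and the unadjusted p was under 0.05 in 2089 genes. Without the CCl4 2-week NC array or the CCl4 2-week miR-29a array limma called 0 genes, with 892 and 885 genes at an unadjusted p under 0.05. Without either CCl4 1-week array it called 7.

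Genes were grouped into 47 lists of pathways and cell types. No member of any list was called by limma (0.110% of all genes were), so lists are described by how many members had both matched differences on 1 side of 0 and by their medians, beside the values over all genes. The largest positive list medians belonged to genes of the fetal liver (1.03 log2), of mitosis and DNA replication (0.82), of dendritic cells and MHC class II (0.77), of infiltrating macrophages (0.69) and of bile duct cells (0.61). The largest negative medians belonged to erythroid genes (−0.55), chaperones of the endoplasmic reticulum (−0.45) and cholesterol synthesis (−0.44). The median over all genes was −0.08. Each of these 8 medians kept its sign in all 19 alternative settings. Most genes named below were picked for the size of their difference, which favours arrays of the agents that do not overlap. The share of all genes without such overlap was not counted.

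**Figure D2:**
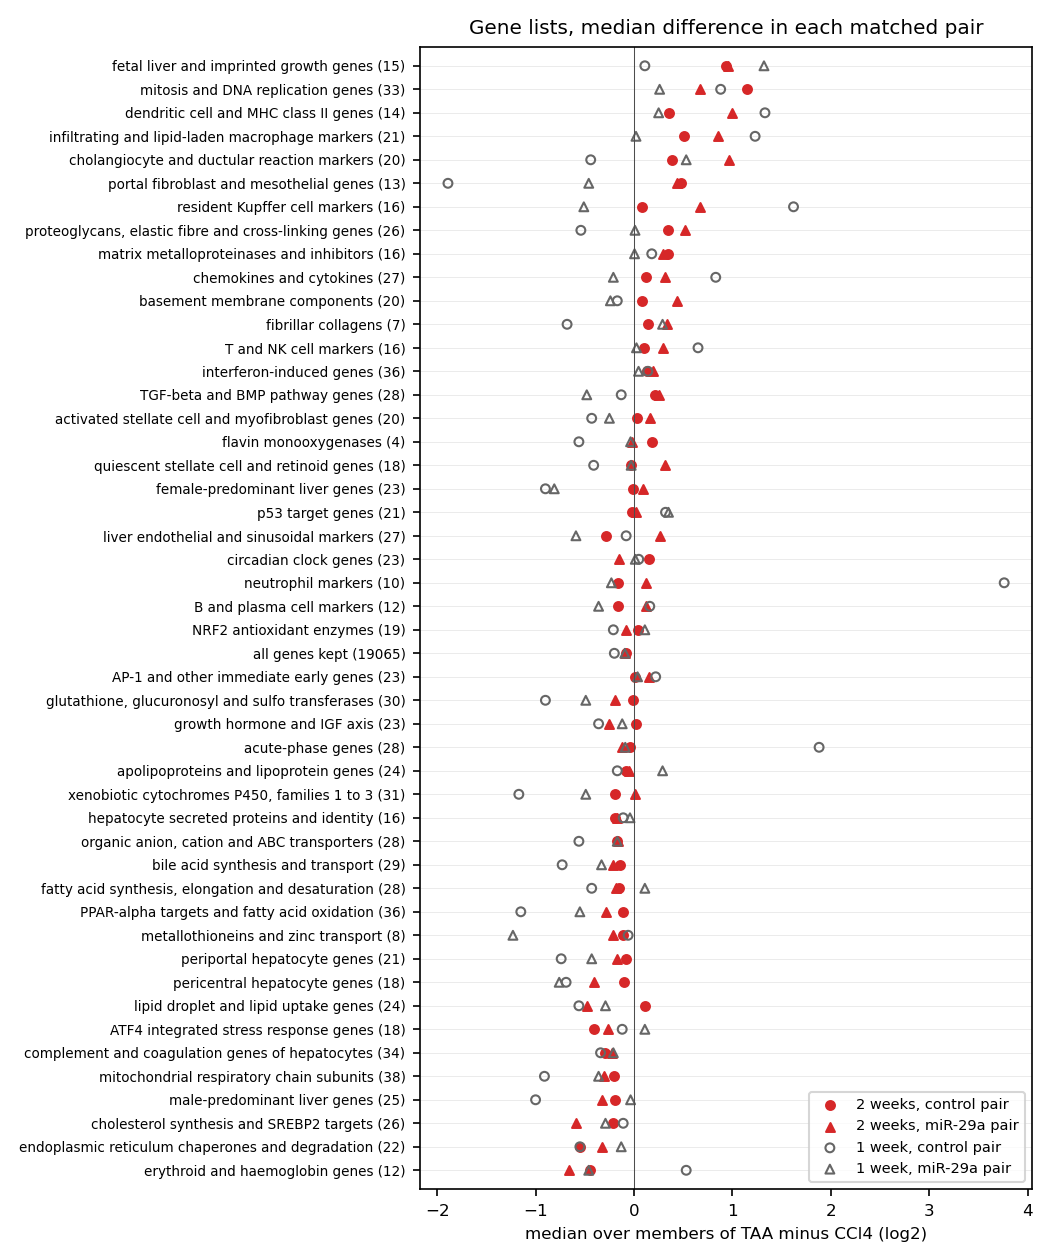
Each row is a gene list with its number of members kept, ordered by the median over members of the TAA minus CCl4 difference at 2 weeks (horizontal axis, log2). Filled symbols are the 2-week pairs and open symbols the 1-week pairs (circles NC, triangles miR-29a); the 2-week medians run from −0.55 for erythroid genes to 1.03 for fetal liver genes, and the row of all genes lies at −0.08.

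Most of the genes of mitosis and DNA replication that could be measured were at higher levels in the TAA livers, though none passed the test. These genes are switched on as a cell copies its DNA and divides, and in liver they mark hepatocytes and other cells that re-entered the cycle after injury. Of 46 listed genes 33 passed the filter, 28 of them well above background on all 4 arrays. Of the 33 members kept 27 were higher with TAA in both matched differences (24.9% of all genes were) and 2 were lower in both, and 13 were over 2-fold higher in both (1.00% of all genes were). The list's median was 1.15 in the NC pair and 0.67 in the miR-29a pair. Among the alternatives it ran from 0.51 to 1.2.

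**Figure D3:**
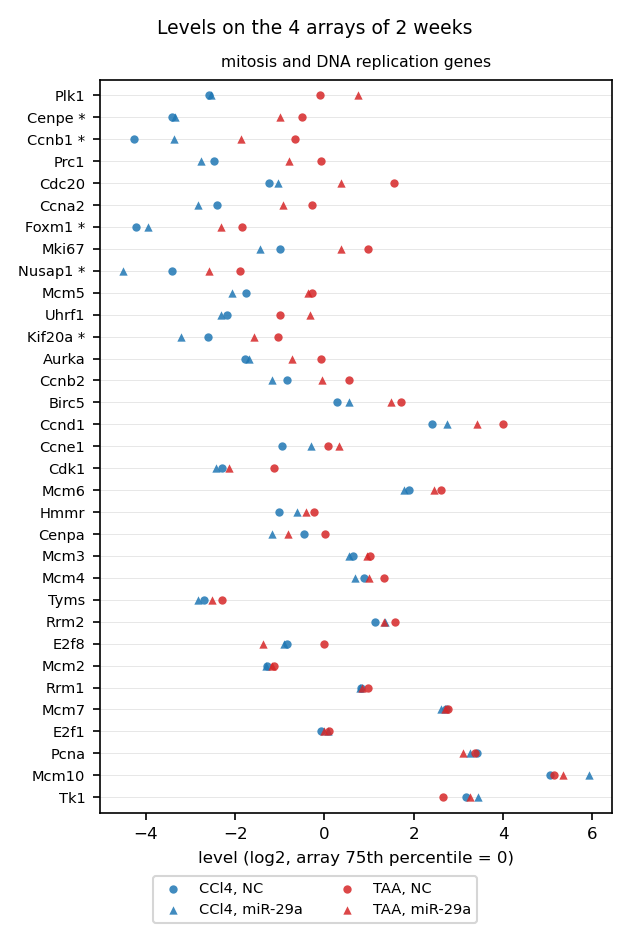
Levels of the 33 measured mitosis and DNA replication genes on the 4 arrays of 2 weeks (log2, the array's 75th percentile at 0), with CCl4 in blue, TAA in red, NC as circles and miR-29a as triangles. Genes marked with an asterisk were not well above background on all 4 arrays; from Plk1 at the top, with a mean difference of 2.89, down to Hmmr both TAA arrays lie above both CCl4 arrays.

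Plk1, a kinase needed for spindle assembly and division, was at −2.59 and −2.54 on the CCl4 arrays and at −0.09 and 0.75 on the TAA arrays. The TAA arrays were thus far above the CCl4 arrays, with little spread between the latter, and the mean difference was 2.89 ± 0.42 log2 (SE, n = 2 pairs), or 7.43-fold (limma adjusted p = 0.206). Cdc20, the activator of the ubiquitin ligase that ends mitosis, was at −1.25 and −1.05 with CCl4 and at 1.55 and 0.38 with TAA, a difference of 2.12 ± 0.32 (adjusted p = 0.225). Prc1, which bundles the microtubules of the central spindle, was at −2.48 and −2.77 against −0.07 and −0.80 (2.19 ± 0.33, adjusted p = 0.216). Ccna2, a cyclin of S phase and early mitosis, was at −2.41 and −2.84 against −0.28 and −0.94 (2.01 ± 0.43, adjusted p = 0.384). These 4 genes were named for large differences, both TAA arrays were above both CCl4 arrays in them, and none passed the threshold. The array's probe for Plk1 lies on mm9 at chr7:129313220-129313279 and that for Cdc20 at chr4:118105534-118105593.

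Cenpe, a kinetochore motor, and Ccnb1, the main mitotic cyclin, were not well above background on either CCl4 array. Both passed the filter only through the TAA arrays, so they had to differ to be kept, and no p-values are given. They were at least 6.17-fold and 5.49-fold higher on the TAA arrays, and they count among the 13 members over 2-fold higher in both pairs. Mki67, the common marker of dividing cells, named here after its values were seen, was at −0.99 and −1.44 with CCl4 and 0.97 and 0.38 with TAA (1.89 ± 0.30, limma adjusted p = 0.252). Mcm6, a subunit of the replicative helicase also named after its values were seen, was at 1.89 and 1.78 against 2.60 and 2.45 (0.70 ± 0.24, adjusted p = 0.431). The summed linear level of the list, which its brightest members set, overlapped, at 84.6 and 113 with CCl4 and 113 and 107 with TAA. Macrophage and bile duct markers were also higher with TAA, with the values given below, and their part in the difference was not tested. At 1 week the list median was 0.52 and the difference of Plk1 was 1.88, and the test of the change of that difference between the weeks had an adjusted p of 0.311. Cdkn1a, an inhibitor of the cell cycle and a p53 target, was at −1.85 and −2.64 with CCl4 and at −0.80 and −1.0 with TAA (1.34 ± 0.24, adjusted p = 0.317). The p53 list as a whole had 8 members higher and 8 lower in both pairs among 21 (38.1% each), against 24.9% and 45.6% of all genes.

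Promoters of the mitotic genes are printed as a description of the list. Promoter sequences from RefSeq (GRCm38.p6), running from 250 bases before to 50 bases after the gene's start, were found for 28 of the 33 members. They were searched on both strands for TTTGAA, the cell cycle genes homology region (CHR) known from mitotic promoters, and for CCAAT, the binding motif of NF-Y. The CHR letters were in 11 of the 28 members (39.3%) and in 17.9% of all 32851 promoters, CCAAT was in 22 (78.6%) against 37.4%, and both were in 11 (39.3%) against 6.95%. The list was compiled from known genes of the cell cycle, so these shares describe how it was chosen. A member counted when any of its listed promoters matched, while the share over all was taken per promoter, which favours the list. A match describes the letters of the window and is no evidence of binding. The promoters of Plk1 (chr7:122159185-122159484, plus strand), Prc1 (chr7:80294201-80294500, plus strand, the first of 2 listed) and Cdc20 (chr4:118437294-118437593, minus strand) follow 5′ to 3′, with CHR and CCAAT letters in capitals.
Plk1: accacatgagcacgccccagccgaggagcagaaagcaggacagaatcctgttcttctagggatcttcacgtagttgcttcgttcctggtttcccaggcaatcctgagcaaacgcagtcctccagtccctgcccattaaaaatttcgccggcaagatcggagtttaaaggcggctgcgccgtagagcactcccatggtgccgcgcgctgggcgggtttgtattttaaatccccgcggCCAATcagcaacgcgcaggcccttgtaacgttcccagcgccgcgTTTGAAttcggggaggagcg
Prc1: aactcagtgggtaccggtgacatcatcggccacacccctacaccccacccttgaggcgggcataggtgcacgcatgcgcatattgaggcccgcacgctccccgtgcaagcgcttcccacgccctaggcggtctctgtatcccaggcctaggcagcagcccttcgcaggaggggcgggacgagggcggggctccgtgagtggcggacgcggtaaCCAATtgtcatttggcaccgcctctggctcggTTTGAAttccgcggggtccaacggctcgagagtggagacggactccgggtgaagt
Cdc20: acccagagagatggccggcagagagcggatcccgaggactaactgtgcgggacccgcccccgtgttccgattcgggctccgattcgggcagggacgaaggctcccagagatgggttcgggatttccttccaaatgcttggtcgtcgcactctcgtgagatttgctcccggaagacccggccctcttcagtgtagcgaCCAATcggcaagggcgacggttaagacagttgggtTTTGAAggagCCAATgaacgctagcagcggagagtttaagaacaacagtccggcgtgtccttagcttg
Counted from the gene's start, in Plk1 the CHR letters begin 31 bases after the start and CCAAT lies at −14, and in Cdc20 they begin at −18 with CCAAT at −53 and −8.

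Of the measured genes of the fetal liver and of bile duct cells, more than 1 in 2 had higher levels with TAA in both pairs, and none passed the test. These lists hold genes that are silent or low in adult hepatocytes and appear in immature hepatocytes, in bile ducts and in the ductular reaction, the outgrowth of duct-like cells in injured liver. Of 22 listed fetal genes 15 passed the filter, 11 of them well above background on all 4 arrays, and Igf2 and Dlk1 were among those below it. Of the 15 genes 9 were higher and 3 lower in both pairs (24.9% and 45.6% of all genes). Over 2-fold higher in both were 5, among them Lin28b, which passed the filter only through the TAA arrays. Of 25 listed bile duct markers 20 passed the filter, 17 of them well above background on all 4 arrays. Of the 20 markers 13 were higher and 0 lower in both and 7 had opposite signs, with 4 over 2-fold higher (1.00% of all genes were). Mmp7, which is among the 4, passed the filter only through the TAA arrays. The summed level of the bile duct list was 106 and 92.8 with CCl4 and 109 and 116 with TAA. In bulk RNA, more cells of a type and more RNA per cell cannot be told apart.

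Afp, the fetal counterpart of albumin, was at −1.55 and −1.09 on the CCl4 arrays and at 0.35 and 0.46 on the TAA arrays. The groups did not overlap, with a difference of 1.73 ± 0.26 (limma adjusted p = 0.216). Lin28b, an RNA-binding protein that blocks let-7 maturation, was not well above background with CCl4 and at least 5.68-fold higher with TAA. It passed the filter only through the TAA arrays, so it had to differ to be kept, and no p-value is given. Scd2, a fatty acid desaturase of early life, was at 0.19 and 0.06 against 1.70 and 2.00 (1.73 ± 0.53), and Ly6d at 0.83 and 0.92 against 3.4 and 1.87 (1.76 ± 0.80). Both had adjusted p-values over 0.05 (0.431 and 0.451). Grb10 and Tff3, other members of this list named after their values were seen, were lower with TAA in both pairs, at −0.59 ± 0.37 and −0.88 ± 0.83.

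Among bile duct genes, Spp1 (osteopontin, also made by macrophages) was at 0.14 and 0.40 with CCl4 and at 1.80 and 2.05 with TAA, 1.65 ± 0.48 higher (limma adjusted p = 0.431). Krt23, a keratin of injured liver, was at −0.76 and −1.03 against 1.45 and 0.82, and Anxa13, an annexin of epithelia, at −3.19 and −2.86 against −1.50 and −1.31. All 3 genes were picked from the largest differences of the list, and both TAA arrays were above both CCl4 arrays in them. Mmp7, a matrix protease of ducts, was at least 4.17-fold higher with TAA. Its CCl4 spots were dim, so it passed the filter only through the TAA arrays, and no p-value is given. Krt19, the keratin that defines bile duct cells, showed no such separation, at −1.81 and −1.33 against −1.45 and 0.14 (0.92 ± 0.87, adjusted p = 0.667), and its difference was −0.13 in 1 alternative. Sox9, a transcription factor of ducts, was at −0.19 and −0.04 against −0.37 and 0.22.

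Levels of many genes of antigen presentation and of macrophages were also higher with TAA in both pairs, with none past the test. MHC class II molecules display peptides on dendritic cells, macrophages and B cells. Of 14 genes of this list 9 were higher and 1 was lower in both pairs (24.9% and 45.6% of all genes), and 4 had opposite signs. H2-Aa, the alpha chain of the class II molecule I-A, was at −0.40 and −0.23 on the CCl4 arrays and at 1.04 and 1.49 on the TAA arrays (1.58 ± 0.31, limma adjusted p = 0.363). H2-Eb1, the beta chain of I-E, was at 3.26 and 3.16 against 4.14 and 4.79, and Cd74, the invariant chain that escorts class II, at 2.25 and 2.10 against 3.11 and 3.64. Both TAA arrays were above both CCl4 arrays in these 3 genes, which were picked from the largest differences of the list. The summed level of the list overlapped, at 213 and 190 with CCl4 and 207 and 227 with TAA. The B cell list, whose cells also carry class II, had 3 members higher and 3 lower in both pairs among 12.

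Of 21 genes of infiltrating and lipid-laden macrophages 17 were higher and 1 lower in both pairs, with a median of 0.69 (24.9% of all genes were higher in both). Itgax, an integrin of dendritic cells and lipid-laden macrophages, was at −1.93 and −1.54 against −0.91 and −0.54 (1.01 ± 0.36, adjusted p = 0.431), and Cx3cr1, the fractalkine receptor, at −1.53 and −1.31 against −0.76 and 0.05. Chil3 (Chi3l3 on the array), a lectin of alternatively activated macrophages, had a difference of 1.98 ± 0.46 with its spot dim on 1 of 2 CCl4 arrays (adjusted p = 0.395). The summed linear level of the list was 59.8 and 51.8 on the CCl4 arrays and 77.3 and 78.2 on the TAA arrays, in units of the array's 75th percentile. Resident Kupffer cells were less distinct. Of 16 markers 10 were higher and 1 lower in both pairs, the complement genes C1qa, C1qb and C1qc leading with 1.04 ± 0.69, 1.06 ± 0.60 and 0.76 ± 0.58, while Clec4f, which defines these cells and was named after its values were seen, like Sox9, was at 3.26 and 2.62 against 3.33 and 3.47. The median of the Kupffer list was 0.44, and it was −0.0061 in 1 alternative.

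Of 27 chemokines and cytokines 14 (51.9%) were higher and 10 (37.0%) lower with TAA in both pairs, against 24.9% and 45.6% of all genes. Cxcl9 and Cxcl10 are chemokines that recruit T cells and are induced by interferon. Cxcl10 was at −0.13 and 0.28 with CCl4 and at 1.31 and 1.33 with TAA (1.24 ± 0.15, limma adjusted p = 0.15), and Cxcl9 at 0.01 and −0.03 against 0.86 and 1.11 (1.00 ± 0.19, adjusted p = 0.353). For both genes the TAA arrays lay above the CCl4 arrays. Of 16 T and NK cell markers 10 (62.5%) were higher and 2 (12.5%) lower with TAA in both pairs, against the same shares of all genes. Their median was 0.20. Their summed level ran the other way, at 64.8 and 81.9 with CCl4 and 60.4 and 61.8 with TAA. The bright member Zap70, a kinase of the T cell receptor, was at 4.36 and 4.86 with CCl4 against 3.83 and 3.33 with TAA. In a linear sum bright members weigh most. The T cell markers Cd3e and Cd3d were dimmer and went the other way. Cd3e was at 1.52 and 1.64 with CCl4 against 1.86 and 1.92 with TAA, and Cd3d at −2.52 and −2.95 against −1.98 and −1.90.

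**Figure D4:**
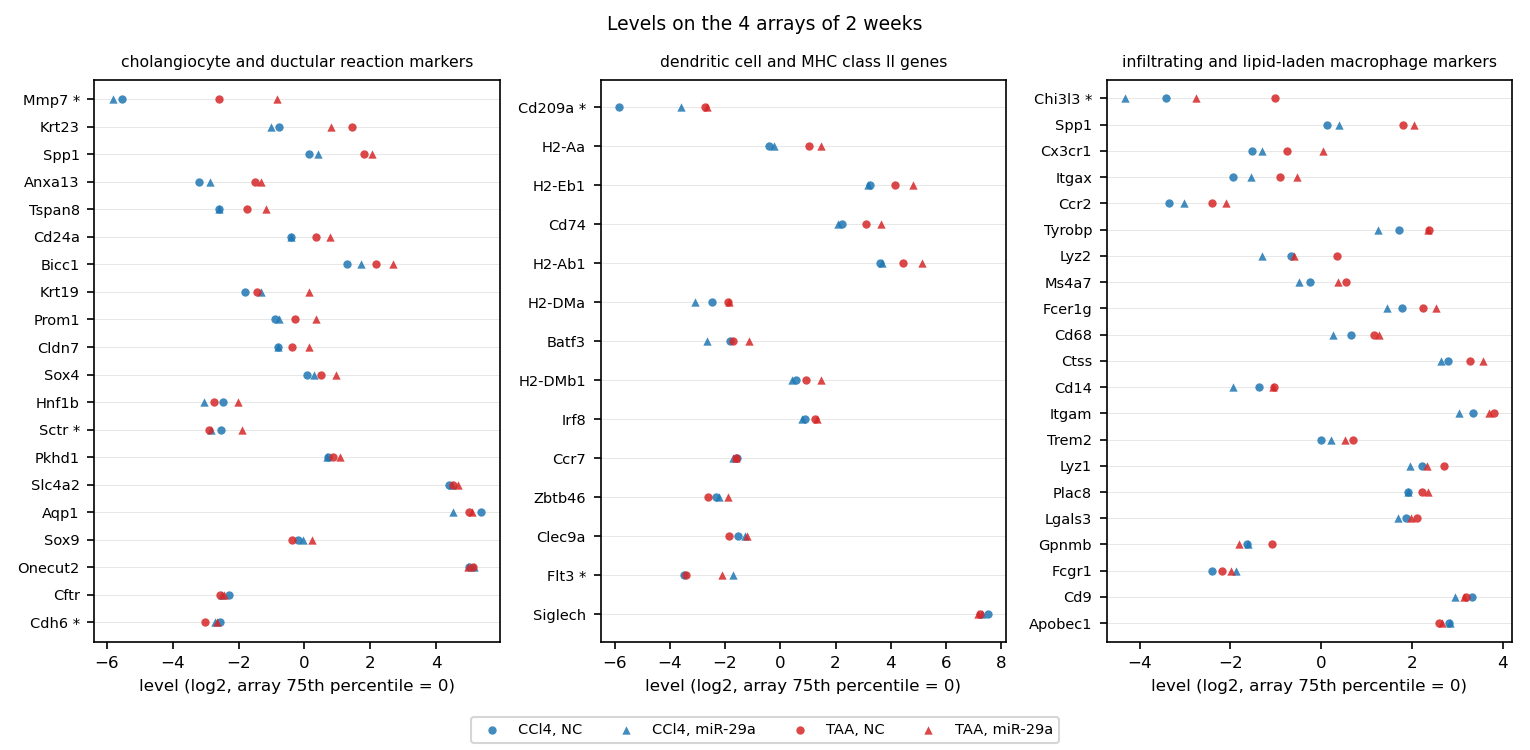
Levels on the 4 arrays of 2 weeks (log2, the array's 75th percentile at 0) of bile duct, MHC class II and macrophage genes, each panel ordered by the mean difference, with CCl4 in blue, TAA in red, NC as circles and miR-29a as triangles. An asterisk marks genes not well above background on all 4 arrays; H2-Aa at −0.40 and −0.23 with CCl4 and 1.04 and 1.49 with TAA is a gene whose groups do not overlap, and Krt19 is one whose groups do.

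Scar matrix was measured through its collagens, its proteoglycans and the proteases that digest it, with their inhibitors. Fibrillar collagens, the bulk of the scar, differed between the agents at 2 weeks by less than the SE of the fit in Col1a1, Col1a2 and Col3a1. Col1a1 was at 0.80 and 0.78 with CCl4 and 0.95 and 1.13 with TAA (0.25 ± 0.43), Col1a2 differed by 0.23 ± 0.29 and Col3a1 by 0.21 ± 0.26, with adjusted p-values of 0.817, 0.746 and 0.752 in limma. Acta2, the actin of activated stellate cells, was at −0.93 and −0.98 against −1.78 and −1.24 (−0.55 ± 0.35), and Timp1, an inhibitor of matrix proteases, differed by 0.29 ± 0.85. The median of 7 collagens was 0.21, and it was −0.031 in 1 alternative.

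Proteoglycans and elastic fibre genes, which space and cross-link collagen fibres, had 15 of 26 members higher and 1 lower with TAA in both pairs (24.9% and 45.6% of all genes), with a median of 0.43. Fmod (fibromodulin), which binds collagen fibrils, was at −3.20 and −2.57 with CCl4 and −1.38 and −1.07 with TAA (1.66 ± 0.29, limma adjusted p = 0.309). Ogn (osteoglycin), a small proteoglycan of the same family, was at −1.74 and −1.04 against −0.73 and −0.19 (0.93 ± 0.31, adjusted p = 0.431). Of 23 listed matrix metalloproteinases and their inhibitors 16 passed the filter, of which 11 were higher and 2 lower in both pairs. Mmp3, Mmp8, Mmp9, Mmp12 and Mmp13 were below the filter. Mmp2, the gelatinase made by stellate cells and fibroblasts, was at −2.01 and −2.22 against −0.82 and −0.85 (1.28 ± 0.20, adjusted p = 0.232). The groups did not overlap in these 3 genes, which were picked from the largest differences of their lists. The Fmod probe lies on mm9 at chr1:135943998-135944057, that of Ogn at chr13:49719549-49719608 and that of Mmp2 at chr8:95376840-95376899. Markers of portal fibroblasts and mesothelium had a summed level of 9.98 and 12.6 with CCl4 and 11.6 and 16.8 with TAA, and their part was not tested.

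Most chaperones of the endoplasmic reticulum had lower levels in the TAA livers, and none passed the test. They fold secreted proteins and are induced when unfolded proteins accumulate. Of 22 members 19 were lower and 1 higher with TAA in both pairs (45.6% of all genes were lower in both), and 3 were over 2-fold lower in both (0.509% of all genes were). The median was −0.45, between −0.70 and −0.28 in the alternatives. The summed level was 1470 and 1460 on the CCl4 arrays and 939 and 1070 on the TAA arrays.

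Creld2, a secreted chaperone induced by that stress, was at 6.59 and 6.61 with CCl4 and at 4.89 and 5.60 with TAA, a difference of −1.36 ± 0.39 (limma adjusted p = 0.431). Both CCl4 arrays were above both TAA arrays, and the probe lies on mm9 at chr15:88656997-88657056. Derl3, part of the channel that exports misfolded proteins, followed the oligonucleotide as well, at 0.75 and 3.20 against −1.17 and 1.40 (−1.86 ± 0.67, adjusted p = 0.431), so that its groups overlapped. Crebrf, a regulator of the stress response, was at −1.41 and −0.73 against −2.71 and −2.30, and Sdf2l1, a chaperone cofactor, at 3.31 and 3.57 against 2.03 and 2.82. The abundant chaperones, named after their values were seen, differed less, Hsp90b1 (GRP94) by −0.79 ± 0.23 and Hspa5 (BiP) by −0.59 ± 0.26.

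Promoters of this list are shown because many of them share the endoplasmic reticulum stress element (ERSE), which is CCAAT, 9 bases of any kind and CCACG, so that every match also holds CCAAT. It was searched on both strands and was present in 10 of the 20 members with a RefSeq promoter (50%) and in 39 of all 32851 promoters (0.119%). The list was compiled from genes of this response, so this share describes how it was chosen. Matches were counted as for the mitotic genes. The promoters of Creld2 (chr15:88819396-88819695, plus strand), Derl3 (chr10:75893148-75893447, plus strand) and Hspa5 (chr2:34771840-34772139, plus strand) follow on GRCm38.p6, 5′ to 3′, with the element in capitals.
Creld2: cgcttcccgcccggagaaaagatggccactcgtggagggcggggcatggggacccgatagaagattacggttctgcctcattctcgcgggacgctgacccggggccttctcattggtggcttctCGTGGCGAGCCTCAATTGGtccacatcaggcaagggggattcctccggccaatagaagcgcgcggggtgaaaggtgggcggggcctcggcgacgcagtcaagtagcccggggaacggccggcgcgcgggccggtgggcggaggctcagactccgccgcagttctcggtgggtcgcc
Derl3: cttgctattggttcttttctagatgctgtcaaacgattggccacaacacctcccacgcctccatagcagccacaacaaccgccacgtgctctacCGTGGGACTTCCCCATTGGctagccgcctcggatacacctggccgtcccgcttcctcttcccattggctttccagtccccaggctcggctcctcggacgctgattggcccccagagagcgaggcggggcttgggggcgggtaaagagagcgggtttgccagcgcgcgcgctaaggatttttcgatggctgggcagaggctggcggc
Hspa5: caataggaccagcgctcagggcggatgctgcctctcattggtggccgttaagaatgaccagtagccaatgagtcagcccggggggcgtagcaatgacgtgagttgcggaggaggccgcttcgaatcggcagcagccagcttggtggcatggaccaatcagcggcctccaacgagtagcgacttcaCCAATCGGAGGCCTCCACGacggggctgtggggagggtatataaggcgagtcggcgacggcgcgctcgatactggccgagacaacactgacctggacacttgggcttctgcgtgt
The element lies on the gene's strand in Hspa5, and on the other strand in Creld2 and Derl3, where its reverse complement is what is capitalised.

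Genes of the ATF4 response, which is switched on by amino acid shortage and other stress, had 11 of 18 members (61.1%) lower and 1 higher with TAA in both pairs, against 45.6% and 24.9% of all genes. Asns (asparagine synthetase) was at 1.91 and 3.13 with CCl4 and at 0.22 and −0.49 with TAA, −2.65 ± 0.57 (limma adjusted p = 0.382). Gdf15, a hormone released by stressed cells, was at 4.06 and 3.69 against 2.67 and 2.46 (−1.31 ± 0.31, adjusted p = 0.404). Both were lower on both TAA arrays. Atf3, a transcription factor of the same response, went the other way, by 1.22 ± 0.30, with its spot dim on 1 CCl4 array. The metal-binding metallothioneins Mt1 and Mt2 were at 7.12 and 7.07 against 5.38 and 5.24, and at 5.67 and 6.29 against 3.06 and 3.49. The arrays of an agent were close to each other. The SEs of 1.66 and 2.17 come from a fit that also holds the 1-week arrays, where TAA was at 10.26 and 4.93 for Mt1 and at 10.13 and 3.20 for Mt2.

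Cholesterol synthesis had 19 of 26 members (73.1%) lower and 0 higher with TAA in both pairs, against 45.6% and 24.9% of all genes. The list's median was −0.21 in the NC pair and −0.59 in the miR-29a pair. Hmgcs1, an early enzyme of the pathway, was at 7.43 and 8.49 with CCl4 and 7.09 and 7.20 with TAA (−0.81 ± 0.48, limma adjusted p = 0.513). Insig1, a sterol sensor, was at 3.63 and 4.51 against 2.72 and 3.82 (−0.80 ± 0.31, adjusted p = 0.431). The CCl4 miR-29a array was the highest in both genes, and the list median was −0.038 in 1 alternative.

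**Figure D5:**
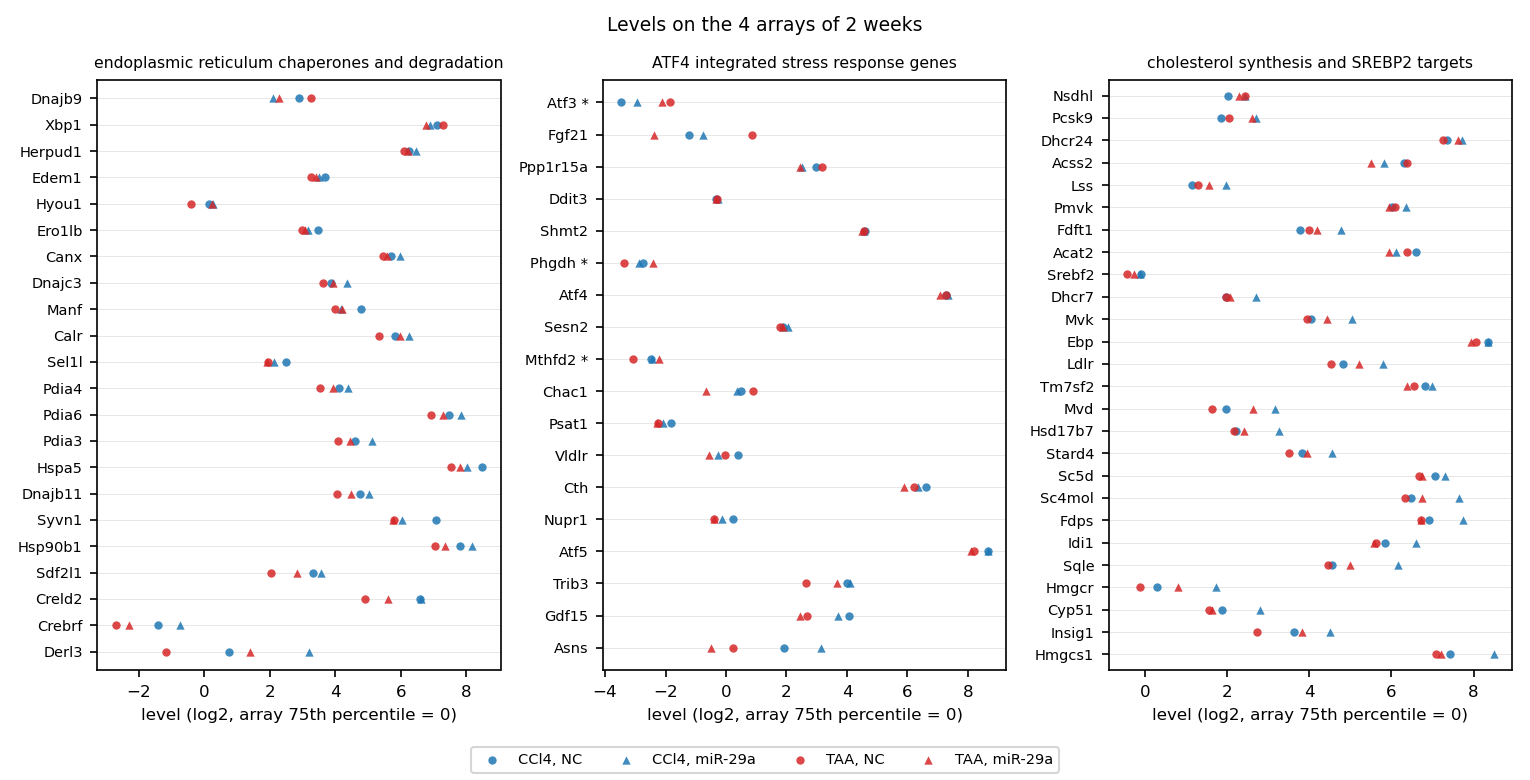
Levels on the 4 arrays of 2 weeks (log2, the array's 75th percentile at 0) of endoplasmic reticulum, ATF4 and cholesterol synthesis genes, with CCl4 in blue, TAA in red, NC as circles and miR-29a as triangles. An asterisk marks genes not well above background on all 4 arrays; Creld2 lies at 6.59 and 6.61 with CCl4 and at 4.89 and 5.60 with TAA, and Asns at 1.91 and 3.13 against 0.22 and −0.49.

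Lists of hepatocyte function had medians somewhat below or close to that of all genes. Of 34 complement and coagulation genes, which hepatocytes secrete, 31 were lower in both pairs, and of 38 subunits of the respiratory chain 36 were lower (45.6% of all genes were). Both medians were −0.26, against −0.08 over all genes, and they were −0.062 and −0.044 in the alternative nearest 0. The medians were −0.14 for secreted and identity genes of hepatocytes, −0.12 for cytochromes P450 and −0.11 for apolipoproteins. Of 31 cytochromes P450 9 were higher and 13 lower in both pairs, and of 24 apolipoproteins 7 and 13. Of all genes 24.9% were higher and 45.6% lower in both. Cyp2e1, the cytochrome that activates both toxins, was at 10 and 9.95 with CCl4 and 9.80 and 9.70 with TAA (−0.22 ± 0.19, limma adjusted p = 0.624). Glul (glutamine synthetase), which marks the cells next to the central vein, was at 6.2 and 6.79 against 6.01 and 5.66 (−0.66 ± 0.27, adjusted p = 0.437).

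Erythroid genes report blood in the tissue or blood formation. Of 12 members 8 (66.7%) were lower and 1 higher with TAA in both pairs, against 45.6% and 24.9% of all genes. Hba-a1 and Hbb-b1, chains of haemoglobin, were at 7.85 and 7.71 against 6.95 and 5.98, and at 3.94 and 3.94 against 3.02 and 1.82. The summed level of the list was 1640 and 1510 with CCl4 and 971 and 679 with TAA.

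Liver genes that differ between the sexes were measured in males only. Of 25 male-predominant genes 17 (68.0%) were lower and 1 higher with TAA in both pairs, against 45.6% and 24.9% of all genes. The list's median was −0.29, and it was 0.0030 in 1 alternative. Susd4, a complement regulator, was at 0.48 and 1.80 with CCl4 and −1.60 and −0.84 with TAA (−2.36 ± 0.27, limma adjusted p = 0.123), and it was called when arrays were scaled to their medians (adjusted p = 0.0279). Of 23 female-predominant genes 10 (43.5%) were higher and 7 (30.4%) lower in both pairs, against 24.9% and 45.6% of all genes. Cyp2b13, a cytochrome of females, was at least 2.97-fold higher with TAA, and the transporter Slc22a26 at least 1.96-fold lower. Each passed the filter only through the arrays of the agent where it was higher, so no p-values are given.

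Further large differences, in genes measured above background on every 2-week array, were in Sftpd, a collectin of innate immunity, at −1.29 and −1.40 with CCl4 and 0.62 and 1.47 with TAA (2.38 ± 0.40, limma adjusted p = 0.286). Cib3, a calcium-binding protein, was at 1.65 and 2.38 against 4.0 and 4.16 (2.07 ± 0.51, adjusted p = 0.423). Hamp (hepcidin), the hormone that limits iron uptake, was at 6.48 and 6.38 against 8.35 and 7.35 (1.42 ± 0.55), and Cbr3, a carbonyl reductase, at −0.60 and −0.59 against 0.87 and 1.03 (1.55 ± 0.17, adjusted p = 0.101). Lower were Rcan2, a calcineurin inhibitor, at −0.29 and −0.10 against −1.41 and −2.43 (−1.73 ± 0.33), and Dct, an enzyme of melanin synthesis, at 3.23 and 3.33 against 1.59 and 1.05 (−1.97 ± 1.35). The TAA and CCl4 arrays did not overlap in any of these 6 genes, which were named for large differences.

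The difference between agents was set against that at 1 week, which shows how far it lasted. At 1 week limma called 2387 genes higher (12.5%) and 4187 lower (22.0%) with TAA. Of the 191 genes over 2-fold higher in both pairs at 2 weeks 58 (30.4%) were so at 1 week (6.55% of all genes were). That is 4.65% of the 1248 genes there. Of the 97 lower genes 18 (18.6%) were so at 1 week, against 1144 of all 19065 genes. These 18 genes are 1.57% of the 1144. In the test of the change between weeks the 2-week difference was above the 1-week difference in 965 genes (5.06%) and below it in 778 (4.08%; 9.14% in all).

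That test rests on single arrays. Leaving out any 1 of the 4 CCl4 arrays or either TAA 2-week array left 0 genes called, while 2140 were called when the NC array of TAA at 1 week was left out and 1893 when its miR-29a partner was. The TAA 1-week NC array also stood apart, with a summed level of neutrophil markers of 1520 against 94.5 to 169 on the other 7 arrays, and its part in the 1-week values was not tested.

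For the matrix genes Mmp2, Ogn and Fmod the difference between agents had opposite signs at 1 and 2 weeks. Mmp2 was at −0.47 and −1.20 with CCl4 and −2.55 and −2.80 with TAA at 1 week, the reverse of its order at 2 weeks, and its difference changed by 3.11 ± 0.28 (limma adjusted p = 0.0275). That of Ogn changed by 2.80 ± 0.43 (adjusted p = 0.0318) and that of Fmod by 2.45 ± 0.41 (adjusted p = 0.0352), the latter being well above background on 2 of 4 arrays of 1 week. Cxcl10 differed by −0.69 at 1 week and by 1.24 at 2 weeks, a change of 1.93 (adjusted p = 0.0275). Asns and Derl3 turned the other way. Asns was at 0.51 and 1.38 with CCl4 and 3.57 and 2.80 with TAA at 1 week, and its difference changed by −4.90 ± 0.80 (adjusted p = 0.0338), that of Derl3 by −4.55 ± 0.95 (adjusted p = 0.0488).

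For 2 genes of hepatocyte metabolism the difference of 1 week was smaller and of the other sign at 2 weeks. Apom, an apolipoprotein of HDL, was at 7.30 and 7.35 with CCl4 and 4.79 and 3.97 with TAA at 1 week, and at 6.44 and 6.17 against 6.93 and 6.97 at 2 weeks (change of 3.59 ± 0.35, limma adjusted p = 0.0275). Cps1, the first enzyme of the urea cycle, named after its values were seen, differed by −1.22 at 1 week and by 0.13 ± 0.15 at 2 weeks (change of 1.35 ± 0.22, adjusted p = 0.0335).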

How the data were processed

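Liver RNA of male mice was measured on 1-colour Agilent arrays, 8 in all and 1 per agent, week and oligonucleotide, grouped as labelled. The authors extracted, per the file headers, intensity values and flags (0 or 1 per spot) with Agilent Feature Extraction 10.10.1.1, which the submitters' processing notes also name, with background subtracted. The deposited matrix of log2 values, used as an alternative, equalled the scaled intensity values within 0.01 for 99.8% of probes; its column medians ran from −4.06 to −3.45. The authors' account of its scaling is not given in the sources used here.

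Spots that were controls or carried an outlier mark were dropped and repeated spots of a probe averaged. Each array's 75th percentile was subtracted from its log2 processed signals. A probe was kept when 2 or more of the 4 arrays of 2 weeks measured it well above background, and the brightest stood for its gene. Probe names were updated through a RefSeq table (27656 by accession, 3401 by symbol, 321 by older symbol; 24303 kept the name in the files).

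The model was fitted by limma (version 3.58.1; R version 4.3.3; files read by data.table, version 1.17.8) to all 8 arrays, with a mean for each agent and week and an additive oligonucleotide term, which left 3 residual degrees of freedom; Benjamini-Hochberg adjusted p-values were called at 0.05. On simulated data over 19065 genes, 200 of them changed, it recovered 21% of genes changed by 1 log2 and 64.8% of those changed by 2. The simulated noise was normal and independent, with the genes' spreads shuffled among them, and there was no difference between agents at 1 week. These shares therefore need not hold for the real arrays, where no gene well above background on all 4 arrays of 2 weeks was called. The number of arrays limits the precision.

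Named were the 12 genes with the largest difference in each direction among those called and over 2-fold in both pairs, filled with genes well above background on all 4 arrays; the 4 largest of each list with 1 sign; 10 fixed genes; the 5 largest changes between weeks in each direction; and the 5 largest gaps between pairs of opposite sign. Accession-type names were left out and the text gives part of these genes; some are not reported here. The members, lists and rules were chosen with earlier results of these data known. Alternatives were other background corrections, scalings, filters, probe rules, fold limits and fits, and leaving out arrays.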

Additional observations from a re-analysis of the deposited data

Results flagged for a closer look

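In 26 of 201 named genes limma's interaction test found different TAA minus CCl4 differences at 2 weeks and 1 week (adjusted p under 0.05). Of all genes 9.14% passed it. Some of the 201 were named because they passed it, so the count is no result about the named genes. Values are in log2 as 2-week minus 1-week difference. These calls are lost when any 1 CCl4 array or either TAA 2-week array is left out. The 2-week difference was above the 1-week difference for Itm2a (4.67), Nt5dc2 (4.34), Tinag (4.11), Olfr507 (3.95), Prm3 (3.63), Apom (3.59), Crat (3.4), Mmp2 (3.11), Spint5 (2.96), Ogn (2.80) and Fmod (2.45). It was so by less for Gstm4 (1.93), Cxcl10 (1.93), Abcb1a (1.81), Fbn1 (1.76) and Lyve1 (1.42). It was below the 1-week difference for Asns (−4.90), Derl3 (−4.55), Med12l (−4.52), Olfr1250 (−4.16), Mpped2 (−4.08), Rab26 (−3.86), Obox1 (−3.83), Olfr1167 (−3.82), Crebrf (−2.29) and Csf3r (−1.15). Prm3, Spint5, Olfr507, Rab26, Obox1, Olfr1167 and Olfr1250 were not well above background on any 1-week array. On neither 2-week array of 1 agent were Prm3, Spint5, Olfr507 and Nt5dc2 (CCl4) or Rab26, Obox1, Olfr1167, Olfr1250 and Mpped2 (TAA) well above background, so their sizes set a signal against a dim spot.

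The matched differences at 2 weeks had opposite signs in the NC and miR-29a pairs in 5624 of 19065 genes (29.5%), and in 38 (0.199%) both were beyond 1 log2. The 5 named genes with the largest such gaps follow; the gap was not tested, as there was 1 array per group. The miR-29a pair minus the NC pair was 9.61 log2 for Cyp26b1, a retinoic acid hydroxylase, which was at 3.54 and 0.72 with CCl4 and −2.49 and 4.30 with TAA. It was −4.66 for Chic1, −3.70 for Fgf21, −3.68 for Klhl11 and −3.22 for Macc1.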

How the results depend on the processing

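The sign was kept in 3729 of 3767 values of the 201 named genes, and for 177 genes in every alternative run; 20 of 47 list medians kept theirs in all 19. The calls at 2 weeks (17 higher, 4 lower) became 1 and 0 with normexp, 9 and 2 with no filter, and 0 and 0 with probes well above background on all 4 arrays, with those so on at least 4 of 8 arrays, with an intensity trend and with the 4 arrays of 2 weeks alone (2089, 2101, 2584 and 3878 genes at an unadjusted p under 0.05 in limma). With quantile normalization 9 were higher, with median scaling 16 were lower and without the TAA 1-week pair 2 were lower. Leaving out 1 array gave 0 to 15 higher and 0 to 2 lower. Genes over 2-fold in both pairs (191 and 97) became 32 and 16 with normexp, 483 and 190 with no filter, 69 and 26 with all 4 arrays, 125 and 52 with 4 of 8, 520 and 407 at 1.5-fold and 49 and 31 at 4-fold; 153 were lower with median scaling. Changes between weeks (965 and 778) became 2211 and 1276 with normexp, 2734 and 512 with median scaling and 0 and 0 with no filter; 1573 were above with the trend; leaving out 1 array gave 0 to 1069 above and 0 to 1071 below. The causes were not tested. Without a 2-week array no count over both pairs exists, and the fits without a 1-week pair give no change between weeks. The slide as a block was not run, since all arrays shared 1 slide and 1 scan. Beyond the matching by oligonucleotide, which the fit holds as a term, no paired analysis was possible because the labels carry no replicate numbers. All 21 calls at 2 weeks rest on probes dim with 1 agent.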
